A study of Homo sapiens with 8 samples.

Results

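Expressed antisense genes were taken as all genes whose symbol ends in -AS1 and whose count on the strand of the gene averaged at least 10 over the 8 libraries. They numbered 222 of 1621 genes with such a symbol, of which 877 had at least 1 count, and of 78932 genes in all. They were chosen by their mean over both groups together, so that mean is no result, while the difference between the groups was not used. Each gene was set beside the coding gene named before -AS1. For 175 genes that partner also averaged at least 10 counts, for 46 it did not, and for HOXC-AS1 no gene carries the symbol. Against the label of noncoding antisense genes, GENCODE 29 types 171 of them as antisense, 24 as processed transcripts, 21 as intergenic long noncoding RNAs, 3 as bidirectional promoter RNAs, 1 as sense overlapping and 1, KRT10-AS1, as protein-coding, and it does not hold SVIL-AS1.

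The libraries came from HCT116, a human colorectal cancer cell line, in a form labelled dTAG-NUDT21, which carries a degradation tag on NUDT21. All 8 libraries, controls included, came from these tagged cells and had JTE-607, an inhibitor of the nuclease that cuts pre-mRNA at the poly(A) site. The groups differed in the other agent: 4 libraries had DMSO, the solvent control, and 4 had dTAGV1, which directs the tagged protein to degradation. Doses, times and the number of clones are not given in the sources used here, and the labels do not say that replicates were separate cultures, so p-values measure the spread between these libraries only.

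Antisense genes are transcribed from the strand opposite a neighbouring coding gene, and most give noncoding RNAs that are spliced and polyadenylated. Many start beside the promoter of the coding gene and run away from it, while others run into its 3′ end or lie within its span. Some act on the coding gene in cis, some act elsewhere, and for most no function is known. Their RNA is cut and polyadenylated by the machinery that processes mRNA, including cleavage factor Im, whose small subunit is NUDT21. That subunit binds the RNA word UGUA upstream of poly(A) sites.

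The 8 libraries held 3447842 to 4291256 counts on the strand of the gene, and the 222 antisense genes took 11390 to 14670 of these. NUDT21 itself gave 104, 139, 131 and 129 counts with DMSO and 34, 29, 15 and 43 with dTAGV1. It was lower by 1.95 on the log2 scale with dTAGV1 (SE 0.18, adjusted p = 1.36e-09). The degrader acts on protein, which was not measured. Levels are given as CPM, counts in each 1000000 of the library after scaling. Of 9 markers of a colon epithelial line, 1 was at 0 in every library (CDX1), VIL1 and LGALS4 had means under 1 count, and their summed level was 1575 to 1831 CPM with DMSO and 1253 to 1353 with dTAGV1. Of these, KRT18 (log2 difference -0.60) and KRT19 (-0.65) were lower, EPCAM was higher (0.28, adjusted p = 0.00282) and CDH1 was not called (0.02). Fibroblast markers, with 3 of 6 at 0, summed to 15.9 to 20.8 and 11.2 to 15.9 CPM, the 5 leukocyte markers to 0.241 to 1.37 and 0.604 to 2.83, and the 3 endothelial markers to 1.64 to 2.93 and 0.295 to 0.85. The part of these markers in the results below was not tested.

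Because the kit reads RNA next to its poly(A) tail, the sequence at the 3′ end is the part of an antisense gene that these libraries sample. The last 100 bases of 12 of the genes described below are shown, read from the transcripts of GENCODE 29 on GRCh38. Annotated ends need not be the sites used in these cells. Capitals mark TGTA, the DNA spelling of UGUA, anywhere in the window, and the poly(A) signals AATAAA and ATTAAA in its last 50 bases. The genes were picked after their values were seen, and each sequence is written 5′ to 3′ on the transcribed strand. The first 5 were higher with dTAGV1, and the other 7 were lower.

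ELF3-AS1: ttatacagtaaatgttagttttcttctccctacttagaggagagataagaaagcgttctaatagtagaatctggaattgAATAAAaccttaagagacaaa
INTS6-AS1: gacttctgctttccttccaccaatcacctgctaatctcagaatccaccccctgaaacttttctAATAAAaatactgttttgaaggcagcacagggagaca
CD27-AS1: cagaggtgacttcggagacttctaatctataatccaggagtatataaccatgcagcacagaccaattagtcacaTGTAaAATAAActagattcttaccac
NEXN-AS1: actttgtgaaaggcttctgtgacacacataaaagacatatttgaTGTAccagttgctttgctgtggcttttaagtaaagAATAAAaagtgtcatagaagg
EMC1-AS1: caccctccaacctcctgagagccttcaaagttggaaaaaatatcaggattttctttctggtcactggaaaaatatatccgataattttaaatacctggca
SPRY4-AS1: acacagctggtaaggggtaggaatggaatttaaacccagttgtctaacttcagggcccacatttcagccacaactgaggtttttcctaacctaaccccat
NOP14-AS1: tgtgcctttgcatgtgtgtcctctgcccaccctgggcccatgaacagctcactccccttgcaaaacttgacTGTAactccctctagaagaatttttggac
SPINT1-AS1: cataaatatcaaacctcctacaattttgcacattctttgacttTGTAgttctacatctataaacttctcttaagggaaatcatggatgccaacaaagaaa
TRAM2-AS1: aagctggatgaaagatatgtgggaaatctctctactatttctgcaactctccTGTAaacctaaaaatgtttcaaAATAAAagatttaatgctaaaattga
PRKAG2-AS1: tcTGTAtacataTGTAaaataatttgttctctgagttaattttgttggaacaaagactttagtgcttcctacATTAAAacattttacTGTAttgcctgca
ZNF503-AS1: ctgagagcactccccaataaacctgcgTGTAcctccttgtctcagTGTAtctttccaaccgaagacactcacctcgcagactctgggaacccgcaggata
GABPB1-AS1: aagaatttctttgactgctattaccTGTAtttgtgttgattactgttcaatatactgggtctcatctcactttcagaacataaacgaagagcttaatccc

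The windows and strands are ELF3-AS1 chr1:201995696-201995795 (minus), INTS6-AS1 chr13:51552265-51552364 (plus), CD27-AS1 chr12:6439001-6439100 (minus), NEXN-AS1 chr1:77881348-77881447 (minus), EMC1-AS1 chr1:19240605-19240704 (plus). For the genes that were lower they are SPRY4-AS1 chr5:142671902-142672001 (plus), NOP14-AS1 chr4:2961639-2961738 (plus), SPINT1-AS1 chr15:40835808-40835907 (minus), TRAM2-AS1 chr6:52583894-52583993 (plus), PRKAG2-AS1 chr7:151879124-151879223 (plus), ZNF503-AS1 chr10:75373401-75373500 (plus) and GABPB1-AS1 chr15:50372103-50372202 (plus). Each window lies within the last exon of its transcript.

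Among those that were higher, AATAAA was found in all but EMC1-AS1, and among those that were lower, a signal was found in PRKAG2-AS1 and TRAM2-AS1. PRKAG2-AS1 held 3 copies of TGTA, ZNF503-AS1 held 2, and SPRY4-AS1 held none. Over the 221 genes with an annotated end, 112 (50.7%) had a poly(A) signal and 76 (34.4%) a TGTA. The signal was present in 38 of 64 genes that were higher (59.4%), 15 of 41 that were lower (36.6%) and 59 of 111 that were not called (53.2%), where a call is an adjusted p under 0.05. TGTA was present in 29.7%, 39% and 35.1% of the same sets. For reference, 40.9% of all 55713 annotated genes had the signal in this window and 37.3% had TGTA, while 76.4% and 53.9% of 10633 coding genes that averaged at least 10 counts had them. These shares are descriptions, and a match in this window is not a site that was shown to be used.

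The mean count, by which the genes were chosen, had a median of 25.9 per library. It was under 20 in 82 of 222 genes and at least 100 in 31, a level reached by 6369 of the 12618 genes tested. GABPB1-AS1, opposite the gene of a subunit of an ETS-family transcription factor, was the most abundant at a mean of 1064 counts. Genes just inside the threshold were AP1G2-AS1, MBNL1-AS1 and STAG2-AS1, at the threshold itself, and those just outside were ARHGAP5-AS1 and CD63-AS1 at 9.75. Summed over all 222 genes, the level was 3069 to 3254 CPM with DMSO and 3361 to 3469 with dTAGV1. Before the scaling factors were applied the groups overlapped: the genes took 0.308% to 0.336% of the counts on the strand of the gene with DMSO and 0.325% to 0.342% with dTAGV1. Without GABPB1-AS1 the scaled level was 2742 to 2925 and 3154 to 3239. The coding partners summed to 15397 to 15546 CPM with DMSO and 17874 to 18641 with dTAGV1. In bulk RNA a change in the kinds of cells and a change in RNA per cell cannot be told apart.

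Antisense genes moved in both directions when dTAGV1 was added. Of 217 that could be tested, 65 were higher and 41 lower with dTAGV1 (48.8% called), beside 57.9% of all 12618 genes tested. In each direction the background was 29.4% higher and 28.5% lower, against 30% and 18.9% of the antisense genes. In 58 genes all 4 dTAGV1 libraries lay above all 4 DMSO libraries and in 38 below (44.2%), beside 50.9% of all genes. The comparison depends on abundance: 44.1% of the 186 antisense genes with a mean of 10 to under 100 counts were called, beside 51.3% of all such genes, and 77.4% of the 31 with at least 100 counts, beside 64.4% of all such genes. The median log2 difference was 0.08 over the antisense genes and 0.01 over all genes. Where both groups averaged at least 10 counts, 53 antisense genes were higher and 29 lower of 186 (44.1%), beside 56.6% of all such genes.

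**Figure D1:**
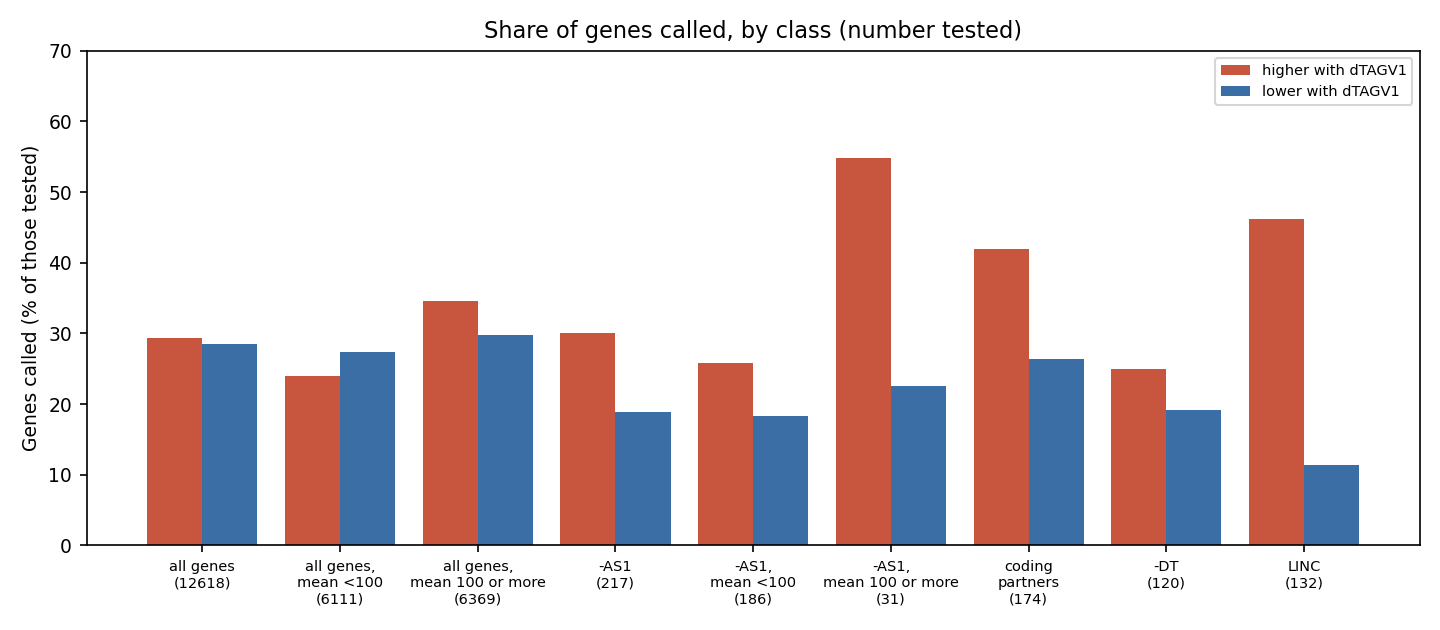
Percent of tested genes called higher (red) or lower (blue) with dTAGV1 at an adjusted p under 0.05, by class, with the number tested in brackets; "mean <100" covers means of 10 to under 100 counts. Bars for antisense genes are 30% higher and 18.9% lower, and for all genes 29.4% and 28.5%.

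Called differences of more than 2-fold were counted among genes with means of at least 10 counts in both groups. They were found in 16 antisense genes upward and 10 downward (14%), beside 12.9% of all such genes. Genes of other noncoding classes stood as follows. The 120 tested -DT genes, divergent transcripts that leave a coding promoter in the other direction, had 30 higher and 23 lower (44.2%). The 132 tested LINC genes, which lie between coding genes, had 61 higher and 15 lower (57.6%). Of 171 tested antisense genes with an expressed partner 78 were called (45.6%), and of 46 without one 28 were called (60.9%). The classes differ in abundance and were not tested against each other.

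**Figure D2:**
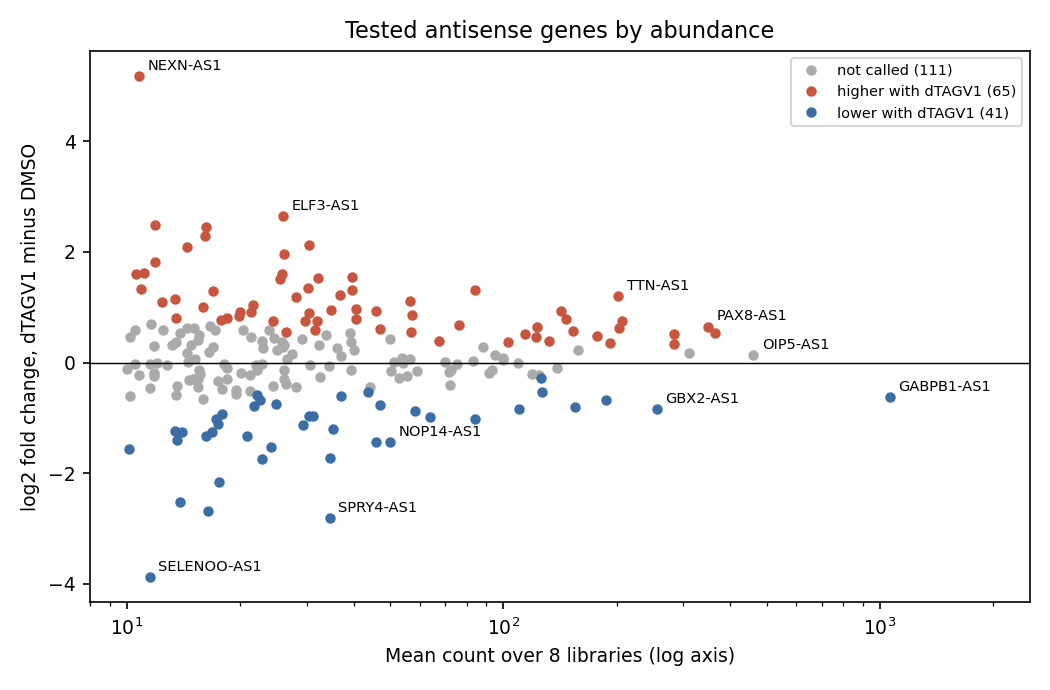
Log2 fold change (dTAGV1 minus DMSO) of the 217 tested antisense genes against their mean count over the 8 libraries (log axis), coloured by call: 65 higher, 41 lower and 111 not called. The widest differences lie among genes with few counts, while GABPB1-AS1, with the highest mean, lies at -0.62.

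The abundant genes with at least 100 counts on average had 17 higher, 7 lower and 7 not called. GABPB1-AS1 gave 1202, 1474, 1224 and 1411 counts with DMSO and 729, 809, 689 and 973 with dTAGV1. Its level was 340 ± 14.5 CPM and 221 ± 19.7 CPM (SD, n = 4 each), a log2 difference of -0.62 (SE 0.07, adjusted p = 1.03e-07), and no dTAGV1 library reached the lowest DMSO library. OIP5-AS1, the long noncoding RNA also called cyrano, was next at 451, 491, 415 and 473 counts against 394, 468, 418 and 581, with overlapping groups and a log2 difference of 0.13 (SE 0.08, adjusted p = 0.185). OTUD6B-AS1, opposite a deubiquitinase gene, had 78.2 ± 6.63 CPM with DMSO and 87.7 ± 11.3 with dTAGV1, and was not called either (log2 difference 0.17, adjusted p = 0.151). Without dTAGV1 replicate 1 its adjusted p was 0.0301.

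PAX8-AS1, beside the gene of a paired-box transcription factor, rose from 72.8 ± 6.47 to 115 ± 2.25 CPM. Its counts were 289, 288, 245 and 313 with DMSO and 411, 386, 385 and 474 with dTAGV1 (log2 difference 0.65, SE 0.08, adjusted p = 3.78e-07). ZFPM2-AS1 had 293, 353, 285 and 320 counts against 389, 437, 421 and 410 and was higher by 0.53 on the log2 scale (adjusted p = 2.94e-05), though a small Y RNA gene overlaps it on the same strand. TTN-AS1, opposite the gene of the muscle protein titin, showed the widest difference among the abundant genes, at 150, 146, 114 and 104 counts against 279, 270, 248 and 301 (log2 difference 1.20, SE 0.12, adjusted p = 3.29e-09). Titin is named here only for position: its gene averaged under 10 counts.

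Other abundant antisense genes that rose were KCNMB2-AS1 (0.94), SVIL-AS1 (0.78), NR2F1-AS1 (0.76), ZSCAN16-AS1 (0.63), KMT2E-AS1 (0.57), RUNDC3A-AS1 (0.52), EPB41L4A-AS1 (0.51), KRT10-AS1 (0.48) and MAPKAPK5-AS1 (0.47), each as a log2 difference with groups that do not overlap. ZNF561-AS1 (0.65), CCDC18-AS1 (0.39), SLC38A4-AS1 (0.37), FGD5-AS1 (0.33) and CDKN2B-AS1 (0.36), the last known as ANRIL, were called although their libraries overlap. The call of ZNF561-AS1 was lost when strand was ignored (0.34, adjusted p = 0.0567). The call of CDKN2B-AS1 was lost without DMSO replicate 2 (adjusted p = 0.05) or dTAGV1 replicate 1 (0.0723), that of CCDC18-AS1 without DMSO replicate 3 (0.0513) or dTAGV1 replicate 4 (0.0713) and irrespective of strand (0.111), and that of SLC38A4-AS1 with DESeq2 (0.055), with library size alone (0.0802) and without DMSO replicates 3 or 4 or dTAGV1 replicates 1 or 4 (0.0559 to 0.144). Those that fell were GBX2-AS1 (-0.84), MRPL20-AS1 (-0.83), NR2F2-AS1 (-0.81), PCGF3-AS1 (-0.68), TPT1-AS1 (-0.53) and NUTM2A-AS1 (-0.28). The call of NUTM2A-AS1 ended with DESeq2 (adjusted p = 0.0681), with no filter (0.0658) and without DMSO replicates 1, 2 or 3 or dTAGV1 replicate 3 (0.0528 to 0.112), and that of TPT1-AS1 when strand was ignored (0.132).

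Below 100 counts, the genes described next were chosen as the 8 widest increases and 8 widest decreases with at least 20 counts on average and groups that do not overlap. ELF3-AS1 led the increases, though it averaged under 10 counts with DMSO and passed the count thresholds only through the dTAGV1 group. Its partner ELF3 is an ETS-family factor of epithelia. ELF3-AS1 gave 6, 5, 8 and 11 counts with DMSO and 37, 35, 43 and 63 with dTAGV1, a log2 difference of 2.65 (SE 0.28, adjusted p = 1.07e-08). SLC25A21-AS1, named for a mitochondrial carrier, had 13, 7, 12 and 16 counts against 41, 36, 67 and 51 (2.12, adjusted p = 2.95e-07). In SLC25A21-AS1 dTAGV1 replicate 3 stood above the other 3 libraries of its group.

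PDC-AS1, beside the gene of a retinal signalling protein, had 12, 14, 10 and 9 counts with DMSO and 48, 44, 28 and 44 with dTAGV1 (log2 difference 1.97, adjusted p = 4.68e-07). INTS6-AS1, opposite a subunit gene of the Integrator complex, which cleaves RNA made by RNA polymerase II, had 21, 18, 10 and 21 against 39, 41, 37 and 71 (1.52, adjusted p = 7.27e-06). EMC1-AS1, at the gene of a subunit of an endoplasmic reticulum insertase, had 28, 20, 16 and 21 against 65, 33, 58 and 76 (1.54, adjusted p = 2.94e-06). In INTS6-AS1 dTAGV1 replicate 4 stood highest, and in EMC1-AS1 dTAGV1 replicate 2 stood well under the other 3. The remaining increases of this group were PARD6G-AS1 (1.60), PCED1B-AS1 (1.51) and CD27-AS1 (1.34). PARD6G-AS1 overlaps another gene on its own strand, so its counts are uncertain.

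**Figure D3:**
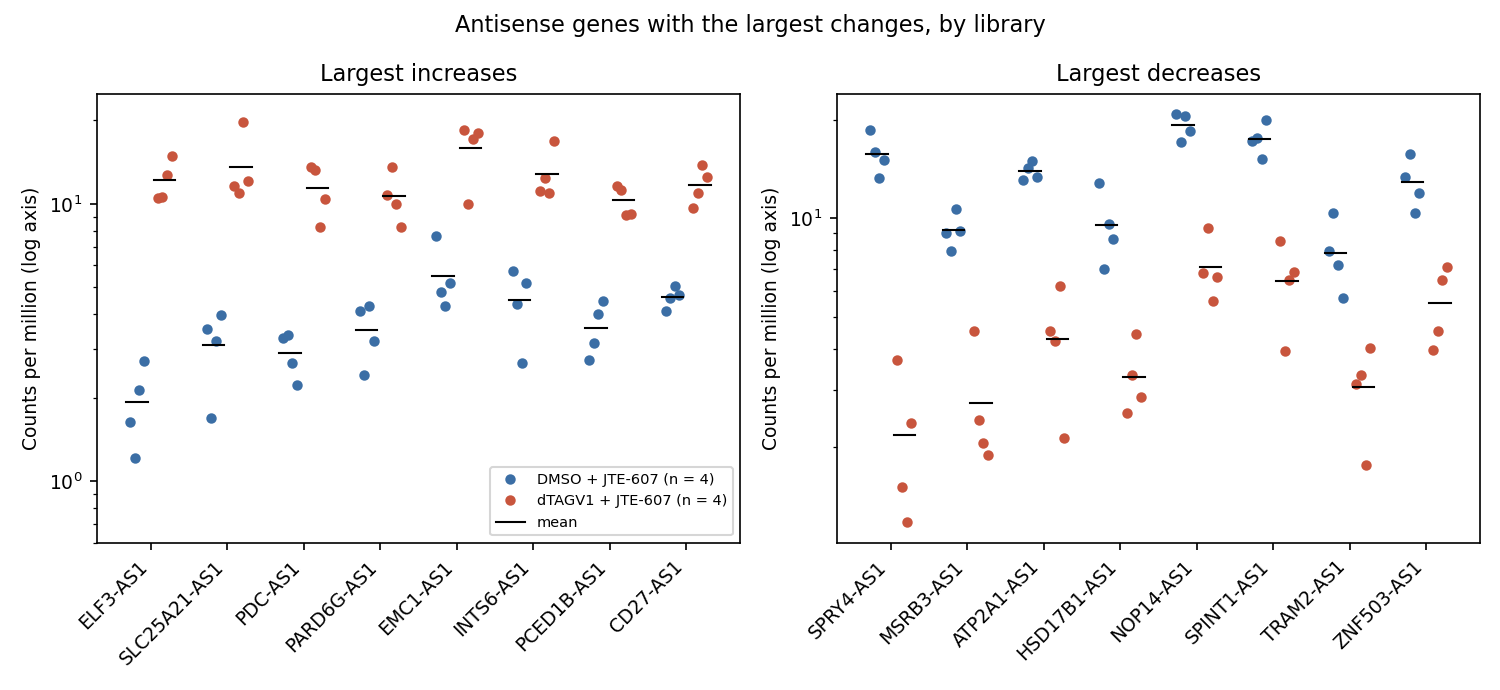
CPM (log axis) of the 8 antisense genes with the largest increases (left) and the 8 with the largest decreases (right) in each library, DMSO in blue and dTAGV1 in red, with 4 libraries a group; black lines are group means. The genes were chosen for groups that do not overlap, so the gap between the colours follows from the choice.

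The largest decrease of this kind was in SPRY4-AS1, next to SPRY4, a feedback inhibitor of receptor tyrosine kinase signalling. It gave 68, 66, 50 and 61 counts with DMSO and 13, 5, 4 and 10 with dTAGV1, or 15.7 ± 2.18 and 2.18 ± 1.12 CPM (SD, n = 4 each). The log2 difference was -2.81 (SE 0.27, adjusted p = 2.18e-09). The highest dTAGV1 library had 13 counts, and the lowest DMSO library 50. SPRY4-AS1 averaged under 10 counts with dTAGV1 and passed the count thresholds only through the DMSO group.

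NOP14-AS1, at a gene for small ribosomal subunit assembly, gave 76, 71, 77 and 75 counts against 24, 31, 19 and 28 (log2 difference -1.44, SE 0.19, adjusted p = 3.72e-07). SPINT1-AS1, beside the gene of a membrane inhibitor of serine proteases, had 63, 73, 57 and 81 counts with DMSO and 30, 13, 22 and 29 with dTAGV1 (-1.43, adjusted p = 1.50e-06). ATP2A1-AS1, at the gene of a muscle calcium pump, had 48, 59, 56 and 54 counts against 16, 14, 21 and 9 (-1.73, adjusted p = 1.09e-06). Of these, NOP14-AS1 had the closest DMSO libraries, between 71 and 77 counts.

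MSRB3-AS1, named for a methionine sulfoxide reductase, gave 33, 33, 40 and 37 counts against 16, 8, 7 and 8 (log2 difference -1.75, adjusted p = 8.16e-06). MSRB3-AS1 also averaged under 10 counts with dTAGV1 and passed the count thresholds only through the DMSO group. HSD17B1-AS1, at the gene of an estradiol-forming enzyme, had 47, 29, 36 and 35 counts against 9, 11, 15 and 12 (-1.53). ZNF503-AS1, near the gene of a zinc finger repressor, had 49, 65, 39 and 48 against 14, 15, 22 and 30 (-1.20), and TRAM2-AS1 had 29, 43, 27 and 23 against 11, 11, 6 and 17 (-1.32). Adjusted p-values of these 3 lay between 2.91e-05 and 0.000314.

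Genes with few counts showed the extremes. NEXN-AS1, opposite the gene of the actin-binding protein nexilin, had 0, 0, 0 and 2 counts with DMSO and 19, 16, 24 and 25 with dTAGV1. Over the summed counts, scaled for depth, this is a ratio of 45.3, with a 95% exact interval of 12.2 to 380 that covers counting error only. SELENOO-AS1, named for a mitochondrial selenoprotein, had 13, 34, 21 and 19 counts with DMSO and 2, 0, 2 and 1 with dTAGV1 (log2 difference -3.88, SE 0.50, adjusted p = 4.01e-07). PSMD6-AS1, at a proteasome lid subunit gene, had 9, 6, 2 and 6 against 39, 23, 20 and 24 (2.29, adjusted p = 5.84e-06), and it shares bases with PSMD6-AS2 on the same strand. NEXN-AS1 and PSMD6-AS1 averaged under 10 counts with DMSO and passed the count threshold only through the dTAGV1 group. SELENOO-AS1 averaged under 10 counts with dTAGV1 and passed it only through the DMSO group.

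Of the 222 genes, 5 were too low for the test: AP1G2-AS1, BCL10-AS1, GTF2A1-AS1, MBNL1-AS1 and RORA-AS1. MBNL1-AS1, opposite the gene of a splicing regulator, had 2, 2, 3 and 9 counts against 6, 17, 16 and 25. In 19 genes the DMSO mean and in 17 the dTAGV1 mean was itself under 10 counts, so those genes entered through the group in which they are higher.

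The question raised by the pairs is whether antisense gene and coding partner moved together. Partners had 73 higher and 46 lower of 174 tested (68.4% called), against the background of 57.9%. Both genes of a pair were called in 55 pairs: 23 pairs with both higher, 13 with both lower, 8 with the antisense gene higher and the partner lower, and 11 the other way round. The same direction was thus found in 65.5% of the pairs with both called, and in 433 of 741 (58.4%) among other pairs of genes on opposite strands that overlap or start near each other, in the same libraries. Across pairs the correlation of the log2 differences was weak (Pearson's r 0.24, Spearman's rho 0.17, over the 170 pairs with both genes tested), and pairs share their libraries. In 32 pairs neither gene was called.

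**Figure D4:**
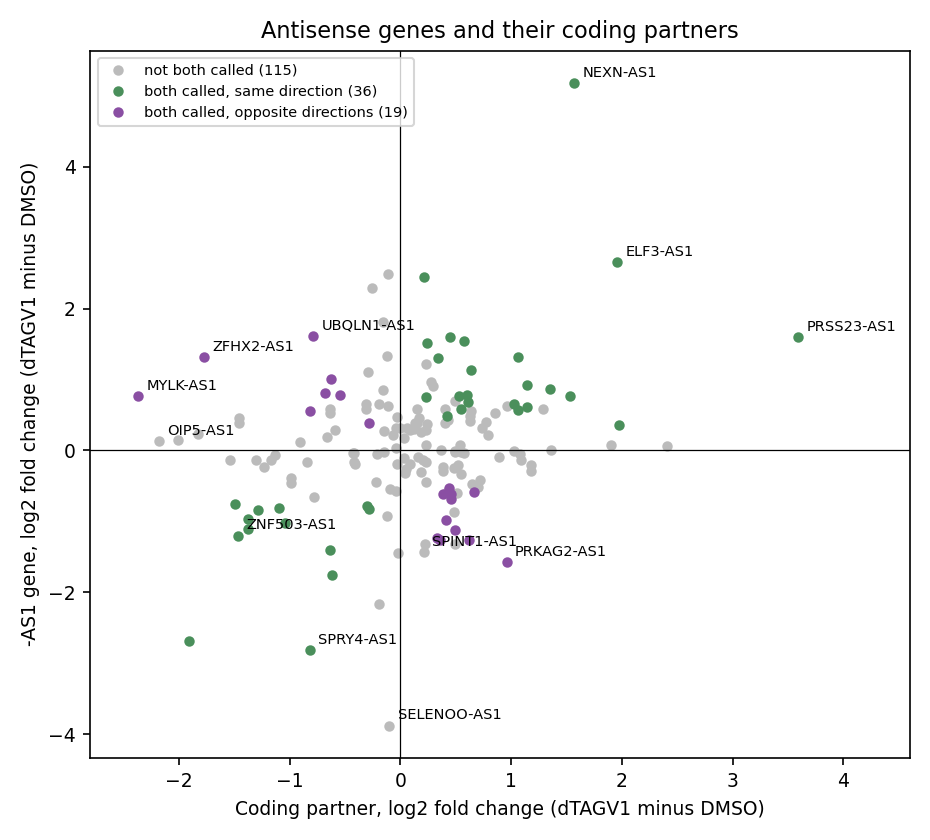
Log2 fold change (dTAGV1 minus DMSO) of each antisense gene against that of its coding partner in the 170 pairs with both genes tested; 36 pairs called in the same direction are green, 19 called in opposite directions purple and the others grey. Points lie on both sides of 0 on both axes, with rho 0.17; the value of NEXN-AS1 rests on 2 DMSO counts.

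Of the 13 pairs with both genes lower, 5 are described. SPRY4 gave 210, 259, 256 and 317 counts with DMSO and 116, 128, 135 and 166 with dTAGV1 (log2 difference -0.82, adjusted p = 6.72e-07), a smaller difference than that of SPRY4-AS1. NR2F2, an orphan nuclear receptor gene, had 1556, 2137, 1955 and 1966 counts against 669, 804, 860 and 941 (-1.10, adjusted p = 1.18e-10), and NR2F2-AS1 had 194, 242, 156 and 219 against 86, 105, 105 and 131 (-0.81, adjusted p = 3.60e-06). ZNF503 was lower by 1.47 on the log2 scale (488, 547, 574 and 571 counts against 152, 183, 170 and 224), beside -1.20 for ZNF503-AS1. All dTAGV1 libraries lay under all DMSO libraries in each of these genes.

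The homeobox genes IRX4 and GBX2 were also lower together with their antisense genes. IRX4-AS1 had 93, 146, 108 and 113 counts with DMSO and 52, 48, 47 and 63 with dTAGV1 (log2 difference -1.02, adjusted p = 1.56e-06), and IRX4 had 66, 60, 50 and 54 against 22, 28, 21 and 33 (-1.04, adjusted p = 6.50e-05). GBX2-AS1 had 277, 374, 359 and 344 against 168, 188, 151 and 191, while GBX2 had 22, 17, 26 and 32 against 8, 2, 6 and 21 (-1.29, adjusted p = 0.00533). The groups overlap in GBX2, where dTAGV1 replicate 4 stood highest of its group, and not in the other 3 genes. GBX2 averaged under 10 counts with dTAGV1 and passed the count threshold only through the DMSO group.

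NR2F1, the paralogue of NR2F2, moved the other way, and its antisense gene with it. NR2F1 had 583, 549, 533 and 645 counts with DMSO and 1474, 1344, 1496 and 1888 with dTAGV1 (log2 difference 1.53, adjusted p = 3.04e-14), and NR2F1-AS1 had 169, 177, 139 and 157 against 238, 262, 212 and 299 (0.76, adjusted p = 8.42e-07). The pair of NR2F1 was thus higher in both genes and that of NR2F2 lower in both.

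ELF3 rose by 1.96 on the log2 scale, with 210, 163, 161 and 174 counts against 632, 631, 631 and 653 (adjusted p = 1.28e-13), beside 2.65 for ELF3-AS1. NEXN had 85, 93, 77 and 114 counts against 226, 187, 268 and 342 (1.57, adjusted p = 1.72e-10). CDKN2B, which encodes the cell cycle inhibitor p15, had 141, 139, 147 and 161 counts against 563, 502, 475 and 592 (1.97), while CDKN2B-AS1 differed by 0.36. The widest coding change in a pair was that of the serine protease gene PRSS23, at 18, 23, 27 and 18 counts against 166, 233, 251 and 322 (3.59), with PRSS23-AS1 at 1.60. The antisense genes of ELF3, NEXN and PRSS23 averaged under 10 counts with DMSO. Those antisense genes passed the count threshold only through the dTAGV1 group.

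Among pairs that moved in opposite directions, MYLK had the largest contrast. MYLK and ZFHX2 averaged under 10 counts with dTAGV1 and passed the count threshold only through the DMSO group. MYLK, the myosin light chain kinase gene, had 21, 21, 31 and 13 counts with DMSO and 2, 5, 6 and 2 with dTAGV1 (log2 difference -2.37, adjusted p = 2.64e-05). MYLK-AS1 had 15, 38, 18 and 29 against 44, 33, 36 and 43 (0.76, adjusted p = 0.00745), and its highest DMSO library lay just under its lowest dTAGV1 library in CPM. ZFHX2-AS1 was higher, at 25, 25, 25 and 20 counts against 61, 34, 52 and 74 (1.31, adjusted p = 8.70e-06), and ZFHX2, a zinc finger homeobox gene within its span, was lower, at 28, 32, 18 and 34 against 3, 8, 11 and 8 (-1.77, adjusted p = 4.99e-05).

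UBQLN1-AS1 rose from 7, 3, 8 and 5 counts to 13, 19, 16 and 18 (log2 difference 1.61, adjusted p = 0.000407), while UBQLN1, which encodes a shuttle of ubiquitylated proteins, fell by 0.79 on the log2 scale from 489, 588, 564 and 606 to 264, 269, 276 and 397 (adjusted p = 1.58e-08). The pair of GATA2, a haematopoietic transcription factor gene, did likewise: GATA2-AS1 was higher by 0.78 (adjusted p = 0.000868) and GATA2 lower, at -0.55 (adjusted p = 0.00385). Groups do not overlap in any of these 4 genes. UBQLN1-AS1 averaged under 10 counts with DMSO and passed the count threshold only through the dTAGV1 group.

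The reverse was found for PRKAG2, which encodes a regulatory subunit of the energy sensor AMPK. PRKAG2 had 145, 151, 128 and 150 counts with DMSO and 249, 226, 233 and 331 with dTAGV1 (log2 difference 0.96, adjusted p = 8.88e-09), and PRKAG2-AS1 had 13, 19, 18 and 12 against 3, 4, 8 and 4 (-1.57, adjusted p = 0.001). SBF2-AS1 had 19, 32, 18 and 28 counts against 11, 9, 10 and 7 (-1.26, adjusted p = 0.00084), beside 0.62 for SBF2, a gene of the myotubularin family. MED8-AS1 had 16, 21, 19 and 25 against 13, 6, 6 and 6 (-1.26, adjusted p = 0.00187), beside 0.36 for MED8, a Mediator subunit gene. The calls of SBF2-AS1 (adjusted p = 0.117), MED8-AS1 (0.245) and MED8 (0.04, adjusted p = 0.831) ended when reads were counted irrespective of strand. Such counts do not tell reads on the strand of the gene from those on the opposite strand. PRKAG2-AS1, SBF2-AS1 and MED8-AS1 averaged under 10 counts with dTAGV1 and passed the count threshold only through the DMSO group.

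GABPB1 belongs to the same set, with 51, 60, 58 and 62 counts against 81, 66, 57 and 74 and a log2 difference of 0.38 (adjusted p = 0.0392). That call ended with DESeq2 (adjusted p = 0.0866), irrespective of strand (0.0571), with library size alone (0.0986) and with no filter (0.119). It also ended without DMSO replicates 1, 2, 3 or 4 or dTAGV1 replicates 1 or 2, at adjusted p-values of 0.0581 to 0.147. The decrease of GABPB1-AS1 was called under each of these alternatives.

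The level of an antisense gene relative to its partner, in counts per 100 counts of the partner, was compared in a fit over 2476 pairs. All but 5 of them are genes on opposite strands that overlap or start near each other in GENCODE 29. A changed ratio was called in 53.3% of the 2476 pairs. Of the 175 pairs named here, 44 were called with a higher and 46 with a lower ratio. In 37 pairs all dTAGV1 ratios lay above all DMSO ratios and in 40 below (44% together), beside 46.5% of all 2476 pairs. Each such pair has the smallest 2-sided exact permutation p that 4 libraries against 4 can give, 0.0286. Both shares are close to those over all pairs. Ratios were formed after adding 0.5 to each count. The kit gives reads at the 3′ end, so no length entered, and ratios are compared between the groups only and not between pairs.

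**Figure D5:**
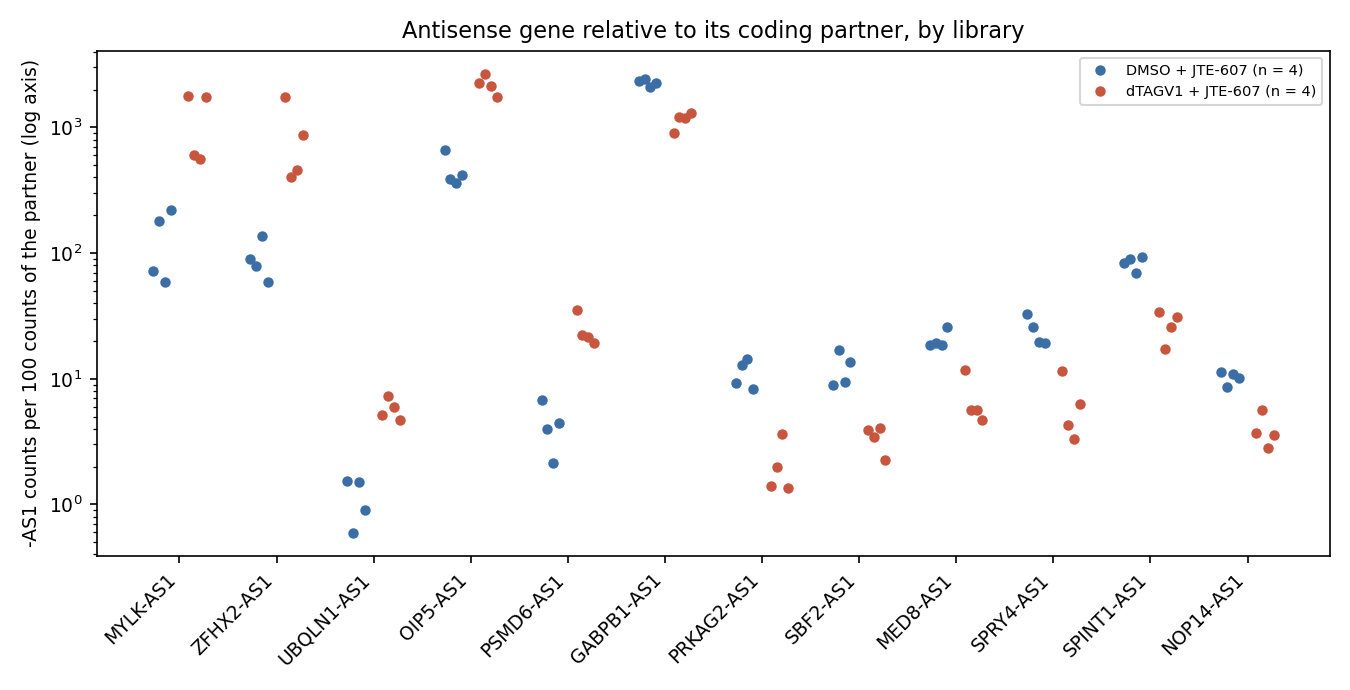
Counts of the antisense gene per 100 counts of its coding partner (log axis) in each library for 12 pairs, DMSO in blue and dTAGV1 in red, with 4 libraries a group. In the first 5 pairs all red points lie above the blue points, and in the other 7 below. The 12 pairs are among those whose ratios do not overlap between the groups, so the gap follows from the choice.

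In other pairs the coding gene was called and the antisense gene was tested but not called. The coding gene was higher in 38 of these pairs and lower in 23, where 57.9% of all genes tested were called. OIP5, which encodes a protein of the centromere-loading Mis18 complex, had 68, 126, 115 and 112 counts with DMSO and 17, 17, 19 and 33 with dTAGV1 (log2 difference -2.18, adjusted p = 1.43e-09), while OIP5-AS1 was not called. The ratio rose from 457 ± 137 to 2203 ± 387 antisense counts per 100 (log2 difference 2.29, SE 0.21, adjusted p = 2.83e-07). The pair of FBXL19, the gene of a CpG-binding F-box protein, was not of this kind, since its antisense gene was called. FBXL19 had 9, 25, 28 and 23 counts against 2, 0, 0 and 7 and was too low for the gene test. With 2 dTAGV1 libraries at 0, the size of the ratio of FBXL19-AS1 to it depends on the 0.5 that was added, and FBXL19 passed the threshold only through the DMSO group. The call of FBXL19-AS1 itself (0.77, adjusted p = 0.032) ended with DESeq2 (0.0608), irrespective of strand (0.0518), with no filter (0.0508) and without DMSO replicates 1 or 2 or dTAGV1 replicates 2 or 3 (0.0561 to 0.14).

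Elsewhere the antisense gene alone was called, higher in 13 pairs and lower in 9 with a tested partner. SPINT1 had 75, 81, 83 and 87 counts with DMSO and 90, 78, 87 and 95 with dTAGV1 (log2 difference 0.21, adjusted p = 0.173), and the ratio fell from 84.1 ± 10.8 to 26.9 ± 7.25 per 100 (-1.68, SE 0.23, adjusted p = 1.43e-05). NOP14 had 674, 827, 711 and 746 counts against 662, 562, 690 and 794 (-0.02, SE 0.07, adjusted p = 0.852), and its ratio fell from 10.2 ± 1.19 to 3.93 ± 1.18 per 100 (-1.42, adjusted p = 4.86e-05). TRAM2 (0.22, adjusted p = 0.126), SELENOO (-0.10, adjusted p = 0.725) and PSMD6 (-0.26, adjusted p = 0.0671) were not called either, with ratio differences of -1.56, -3.63 and 2.58, all called. SELENOO-AS1 passed the count threshold only through the DMSO group, and PSMD6-AS1 only through the dTAGV1 group. Since SELENOO-AS1 had very few counts with dTAGV1, the size of its ratio difference depends on the 0.5 that was added to each count. TRAM2 was called without dTAGV1 replicate 4 (adjusted p = 0.0454) and PSMD6 without DMSO replicate 3 (0.03), with library size alone (0.0214) and at a mean of at least 100 counts (0.0467).

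Where both genes moved the same way, the ratio shows which moved more. SPRY4-AS1 fell from 24.3 ± 6.2 to 6.37 ± 3.69 per 100 counts of SPRY4 (log2 difference -2.06, SE 0.33, adjusted p = 7.43e-05). NR2F1-AS1 fell from 28 to 16.4 per 100 counts of NR2F1 (-0.77, adjusted p = 0.000131), and CDKN2B-AS1 from 120 to 39.4 per 100 (-1.61, adjusted p = 5.59e-08), since the coding gene rose more. For ELF3-AS1 the ratio difference of 0.66 missed the threshold (adjusted p = 0.0695) and passed it without DMSO replicate 4 (0.0257) and with a replicate block (0.0402). For NR2F2-AS1 (0.30, SE 0.15, or 0.37 and called irrespective of strand, adjusted p = 0.0313), ZNF503-AS1 (0.26, SE 0.25) and IRX4-AS1 (0.03, SE 0.22) it was not called, which does not show that the genes moved alike. The ratio of MSRB3-AS1 (-1.13, adjusted p = 0.0159) lost its call without dTAGV1 replicate 3 or 4 (0.0536 and 0.0506) and irrespective of strand (-0.57, adjusted p = 0.169).

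In INTS6-AS1, EMC1-AS1 and PARD6G-AS1 the antisense gene rose more than the partner. INTS6-AS1 went from 5.79 ± 1.48 to 13.8 ± 2.41 per 100 counts of INTS6 (log2 difference 1.27, SE 0.25, adjusted p = 0.000394), and INTS6 itself differed by 0.24 with overlapping libraries (adjusted p = 0.038), a call that ended with DESeq2 (0.0765), irrespective of strand (0.062), with library size alone (0.159), at a mean of at least 100 counts (0.0649), with no filter (0.0664) and without DMSO replicates 3 or 4 or dTAGV1 replicates 1, 3 or 4 (0.0682 to 0.186). EMC1-AS1 went from 8.72 ± 2.61 to 16.7 ± 4.39 per 100 (0.93, adjusted p = 0.00601), though its ratios overlap between the groups. PARD6G-AS1 went from 15.4 to 33.7 per 100 (1.14, adjusted p = 0.00199). The ratio of PARD6G-AS1 lost its call when strand was ignored (0.55, adjusted p = 0.0622).

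The arrangement of the pairs on the chromosome was read from GENCODE 29. In 103 of 175 pairs the genes were head-to-head, with 89 overlapping and 14 apart, in 43 they were tail-to-tail, in 22 the antisense gene lay inside its partner and in 6 the partner inside it, with SVIL-AS1 not in that annotation. Of 100 tested head-to-head antisense genes 23 were higher and 20 lower (43%), of 43 tail-to-tail 13 and 8 (48.8%), and of 21 inside the partner 6 and 5 (52.4%), beside 45.6% of all with an expressed partner. Both genes of the pair were called in 31 head-to-head pairs, of which 20 in the same direction, in 15 tail-to-tail pairs, of which 9, and in 6 nested ones, of which 5. Pairs that share bases in their RefSeq promoter windows (250 bases before to 50 after the start, GRCh38.p14) numbered 36 of 132, and 9 of their 11 pairs with both called went the same way, beside 19 of 31 among the other 96. These are counts of few pairs and were not tested.

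How far a count belongs to the antisense gene rests on strand. In 866 isolated genes with at least 200 counts, 0.0944% of the pooled reads were on the wrong strand. The share varied between genes, with a median of 0% and a 90th percentile of 0.199%. No antisense gene lay at or under the level that the pooled share of the opposite strand's reads would give. At that level the largest expected part was 9.24% of the counts, in PXN-AS1, and at a higher share it would be larger. In 44 antisense genes more reads fell on the opposite strand than on their own. In 22, another gene overlaps on the same strand, and reads may be lost there.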

How the data were processed

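RNA of 8 libraries was read with a forward-stranded 3′ end kit (Lexogen QuantSeq), per the labels' protocols. The deposited values are read counts per gene in the layout of STAR, with columns for any strand, the strand of the gene and the opposite strand. The submitters' processing notes list FastQC, fastp, STAR, HTSeq, DESeq2 and GRCh38, without roles. The 4 totals of reads given to no gene, 56.7% to 62.77% of the reads of a library, stayed out. Gene symbols were matched by identifier, and positions and ends were read from GENCODE 29, which is not stated to be the annotation the authors used.

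Counts on the strand of the gene were fitted with edgeR 4.0.16 in R 4.3.3 (filterByExpr defaults, TMM scaling, quasi-likelihood F test). Benjamini-Hochberg adjustment ran across the 12618 tested genes, at a threshold of 0.05. Log2 ratios within pairs were fitted with limma 3.58.1 over 2476 pairs with means of at least 10 counts. All but 5 of these are opposite-strand pairs that overlap or start within 5000 bases of each other in GENCODE 29. Scripts were checked on simulated counts. Total counts per library limit precision, and intervals cover counting error only. Alternatives were DESeq2 1.42.0, RLE or no scaling, limma-voom, other filters, counts irrespective of strand, a replicate block and leaving out each library.

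Values per library are given for the 8 largest increases and 8 largest decreases among called genes that averaged at least 20 counts with groups that do not overlap, the 5 most abundant, up to 6 pairs called in opposite directions, up to 6 called pairs with the largest ratio difference, their partners and genes at the threshold. Other genes with at least 100 counts, other pairs with both genes called and the printed sequences were added after their values were seen. The members and lists were chosen with earlier results of these data known.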

Additional observations from a re-analysis of the deposited data

Results flagged for a closer look

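In 320 groups of 4 libraries (2 groups for each gene with per-gene alternatives), the distance of the highest or lowest library from its nearest neighbour was divided by the range of the group. It passed 0.829, the 95% value for 4 libraries, in 13 groups, where chance gives about 16 at 1 in 20. The number of flags is under that which chance gives, and no cause was tested.

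Among antisense genes with dTAGV1, the ratio was 0.866 for SLC25A21-AS1 (replicate 3 at 19.7 CPM, the others at 10.9 to 12.1), 0.842 for EMC1-AS1 (replicate 2 at 9.97, the others at 17.1 to 18.4), 0.893 for NR2F2-AS1 (replicate 1 at 24.4, the others at 30.9 to 31.7), 0.928 for MZF1-AS1 (replicate 3 at 27.1), 0.876 for GATA2-AS1 (replicate 4 at 15.6) and 0.876 for JMJD1C-AS1 (replicate 1 at 3.68, the others at 8.46 to 9.13). With DMSO it was 1.000 for NEXN-AS1 (replicate 4 at 0.495 CPM, the others at 0), 0.839 for EPB41L4A-AS1 (replicate 1 at 67.8, the others at 60.3 to 61.5) and 0.942 for ATXN1-AS1 (replicate 2 at 3.86, the others at 1.6 to 1.73). Among partners it was 0.957 for PCGF3 with DMSO (replicate 1 at 38.8, the others at 27.3 to 27.7), 0.840 for SPRY4 with dTAGV1 (replicate 1 at 32.9), 0.937 for SVIL with DMSO (replicate 3 at 62.7) and 0.847 for THAP9 with dTAGV1 (replicate 4 at 2.84). dTAGV1 replicate 1 was the library apart in 3 of the 13 groups.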

How the results depend on the processing

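Counts of called antisense genes (106, with 65 higher and 41 lower) stayed within 1.5 times under DESeq2 (97), RLE scaling (108), library size alone (105), limma-voom (107), no filter (103) and counts irrespective of strand (90 of 192), and ranged from 101 to 106 without 1 library. At a mean of at least 100 counts, where fewer genes are tested, they were 24 (17 higher, 7 lower), with 75 partners (48 and 27) and 4120 of all genes (2131 and 1989). Without 1 library, 109 to 119 partners were called (64 to 71 higher, 44 to 50 lower), 61 to 67 antisense genes higher and 39 to 41 lower, and 6861 to 7232 of all genes (3382 to 3680, 3396 to 3683). The median log2 difference of 0.08 was 0.07 with RLE scaling, 0.11 irrespective of strand, 0.01 with library size alone (all genes -0.06), 0.10 with limma-voom, 0.35 at a mean of at least 100 counts, 0.10 with no filter and 0.08 to 0.14 without 1 library. Pairs with a called ratio (90, with 44 higher and 46 lower) were 18 (5 and 13) with both means at least 50 counts, where fewer pairs are tested, 29 higher irrespective of strand, and 79 to 86 without 1 library (41 to 43, 37 to 43).

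Ignoring strand turned the sign of IDI2-AS1 from 2.08 to -0.27 (adjusted p = 0.374), of ENTPD1-AS1 to 0.47, PCGF3 to -0.71, ST3GAL6 to 0.35 and the ratio difference of MZF1-AS1 to 0.09. Such counts do not tell the strands apart. Of 106 called antisense genes, 90 kept their call in all 8 fits without 1 library and 77 under all of 6 other settings. A gene that was not tested under a setting counts here as having lost its call. Irrespective of strand, 192 antisense genes were tested, beside 217 in the main fit.

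Replicate numbers were not taken to pair the libraries, since deviations of same-numbered libraries correlated at -0.0176 to 0.131, and 1 of 4 dTAGV1 libraries correlated best with its own number. With a replicate block, 105 antisense genes (104 of them among the 106), 122 partners and 94 ratios were called.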
